A study of Mus musculus with 3 samples.

Results

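Cells given bone morphogenetic protein 4 (BMP4) were set directly against cells given noggin, an antagonist of BMPs, without the untreated cells in between. The cells were of R1, a mouse embryonic stem cell line in long use, and were kept undifferentiated. They had received BMP4 at 20 ng/ml for 4 h, noggin at 100 ng/ml for 4 h, or no treatment, with no time given for the untreated cells. The sources used here do not state the medium or any feeder cells. Each condition was measured on 1 Affymetrix array of biotin-labelled total RNA, so there were no replicates, and all differences below are sizes without a test or an error between samples. The members were the 34945 probe sets, of 45101 on the array, that are not controls and that the platform annotation pairs with 1 gene symbol. They stand for 18193 genes. The value of each was its log2 level on the BMP4 array minus that on the noggin array, as computed by RMA, the usual summary of the probes of an Affymetrix probe set, so that 1 is a 2-fold difference and a value above 0 is a higher level with BMP4. The untreated array did not enter this difference, and its levels are given beside the others for orientation.

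BMP4 is a secreted ligand of the TGF-beta family. It binds type I and type II receptor kinases, which phosphorylate SMAD1, SMAD5 and SMAD9, and these enter the nucleus with SMAD4 and act on target genes. Noggin is a secreted protein that binds BMP ligands and keeps them from their receptors. In mouse embryonic stem cells the Id genes are the classical targets of this pathway. Id proteins lack a DNA-binding domain and sequester basic helix-loop-helix (bHLH) factors, and with LIF they are known to help hold the cells undifferentiated.

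A gene was represented by its probe set with the highest mean over both arrays, and it was kept where that probe set lay above 3.44, the median of all values on the BMP4 and noggin arrays, on at least 1 of them. This left 11552 genes, 63.5% of those on the array. Probe sets of the same gene differed from each other by an SD of 0.16 in this difference, computed on 5114 genes with 13603 probe sets. That figure is the nearest measure of technical spread here and is not a spread between cultures.

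The arrays were alike for most genes, and the genes that stood apart were few and mostly higher with BMP4. Of the kept genes 3816 were higher with BMP4, 3938 were lower and 3798 had exactly equal values, and 99.1% lay within 0.5 of 0. At least 2-fold higher with BMP4 were 13 genes, 0.113% of those kept, and at least 2-fold lower was 1 gene, 0.00866%. At the limit of 1.5-fold, 44 genes were higher, 0.381%, and 16 were lower, 0.139%. Averaging every probe set of a gene left 7 of the 13, with Gata2, Hnrnpu, Id4, Msx2, Pggt1b and Taf15 then under 2-fold. The same counting against the untreated array, which is shared between both of the following, gave 11 genes higher and 1 lower at 2-fold for BMP4, and 0 and 0 for noggin. At 1.5-fold it gave 27 higher and 6 lower for BMP4 and 1 higher and 7 lower for noggin. Fewer cells that express a gene and less of its RNA per cell cannot be told apart in these bulk samples.

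**Figure D1:**
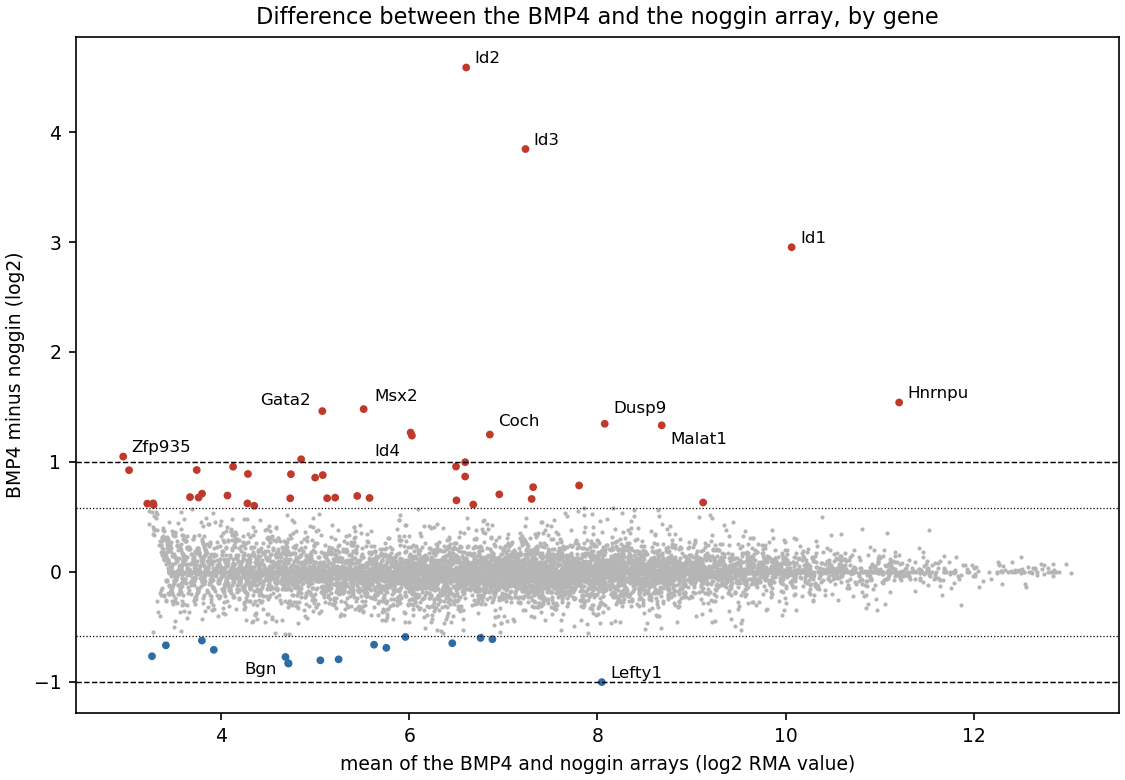
Difference between the BMP4 and the noggin array (log2) for each kept gene, against its mean level on both arrays (log2 RMA value). Red and blue points are the 44 genes at least 1.5-fold higher and the 16 at least 1.5-fold lower with BMP4, and the dashed and dotted lines mark 2-fold and 1.5-fold; Id2, Id3 and Id1 stand above all other genes, and Lefty1 is the lowest.

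The labelled cell type and the array controls were checked on the same values. All 10 embryonic stem cell markers lay above the floor on both arrays, between 9.05 and 12.86. The 12 fibroblast markers lay between 2.12 and 5.09, with 6 above the floor with BMP4 and 7 with noggin, and their summed level (log2) was 7.38 with BMP4 and 7.51 with noggin. The summed level was 6.99 and 6.69 for 7 primitive endoderm markers, 8.55 and 8.20 for 7 trophoblast markers and 6.69 and 6.65 for 4 macrophage markers, of which Ptprc, a defining one, was at 2.0 and 1.53. The arrays were not equal in every technical measure: all 24 poly-A spike probe sets were lower on the BMP4 array, by a median difference of -0.46, while the 18 hybridisation spikes had a median of 0.03. The probe set for the 5′ end of Tfrc, a control for RNA that reaches the 5′ end, was at 6.72 with BMP4, 5.90 with noggin and 6.50 in untreated cells. That is a difference of 0.82 between BMP4 and noggin, and the probe set for its 3′ end was higher with BMP4 too, by 0.32. The other controls of this kind differed less: Actb by 0.16 at the 5′ end and 0.00074 at the 3′ end, and Gapdh by 0.04 at each. The noggin array also reached lower at the bottom of the scale. Its 5th percentile was 1.60, against 1.82 on each of the others, and among the 14903 member probe sets below the floor on both arrays 58.1% were higher with BMP4 and 6.59% lower. The part of these measures in the differences given here was not tested.

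The Id genes gave the largest differences. Id2 was at 8.90 with BMP4, 4.31 with noggin and 4.80 in untreated cells, a difference of 4.59 or 24-fold. Its second probe set read 8.85, 4.09 and 4.14, a difference of 4.76. Id3 was at 9.16 with BMP4, 5.31 with noggin and 5.58 untreated, a difference of 3.85 or 14.4-fold. In all 3 of these probe sets the noggin level lay a little below the untreated level, and the BMP4 level far above both. Id1, whose noggin level was already well above the floor, read 11.54 with BMP4, 8.59 with noggin and 8.78 untreated, which is 2.95 or 7.74-fold between BMP4 and noggin. Id4 had the smallest difference of the family. It was at 6.65 with BMP4, 5.41 with noggin and 5.81 untreated, a difference of 1.24, and its other probe sets gave 0.56 and 0.92. All 4 Id genes were higher with BMP4 than with noggin by more than 2-fold on their brightest probe set, against 0.113% of all kept genes, and in each of them the untreated level lay between the treated ones. Id genes had been chosen for description because they are known BMP targets.

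SMAD complexes are known to bind a GC-rich element, GGCGCC, that has been described upstream of BMP-responsive genes, and a second short element, CAGAC. Both were searched in the 250 bases before the start site of each gene in RefSeq (assembly GRCm38.p6), GGCGCC being its own reverse complement and CAGAC being counted on both strands, where it reads GTCTG on the printed strand. The windows of Id2, Id4 and Coch, which hold GGCGCC, of Id3, which holds CAGAC, and of Msx2, which holds neither, are shown as examples of the genes at least 2-fold higher with BMP4. They are written 5′ to 3′ on the strand of the gene and end at the base before the start site, with the motifs in capitals.
Id2 (chr12:25096093-25096342, minus strand): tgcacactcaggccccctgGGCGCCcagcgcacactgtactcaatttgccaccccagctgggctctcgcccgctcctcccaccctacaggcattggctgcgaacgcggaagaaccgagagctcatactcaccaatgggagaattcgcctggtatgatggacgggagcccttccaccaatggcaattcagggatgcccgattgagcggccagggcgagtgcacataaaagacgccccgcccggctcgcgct
Id3 (chr4:136143572-136143821, plus strand): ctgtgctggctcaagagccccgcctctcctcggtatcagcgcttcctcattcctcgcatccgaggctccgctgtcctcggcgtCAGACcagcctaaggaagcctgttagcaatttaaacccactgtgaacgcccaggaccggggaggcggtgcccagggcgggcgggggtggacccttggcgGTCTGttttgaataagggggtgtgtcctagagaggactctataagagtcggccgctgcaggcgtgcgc
Id4 (chr13:48260866-48261115, plus strand): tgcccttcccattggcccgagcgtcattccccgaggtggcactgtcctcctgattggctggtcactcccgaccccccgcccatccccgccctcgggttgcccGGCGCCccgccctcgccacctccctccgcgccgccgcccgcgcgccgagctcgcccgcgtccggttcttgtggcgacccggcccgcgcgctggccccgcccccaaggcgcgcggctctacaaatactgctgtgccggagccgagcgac
Coch (chr12:51593091-51593340, plus strand): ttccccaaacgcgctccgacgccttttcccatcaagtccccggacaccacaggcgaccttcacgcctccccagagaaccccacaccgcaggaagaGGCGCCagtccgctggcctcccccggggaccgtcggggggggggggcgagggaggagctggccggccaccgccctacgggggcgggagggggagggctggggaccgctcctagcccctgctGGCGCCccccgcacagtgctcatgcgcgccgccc
Msx2 (chr13:53472781-53473030, minus strand): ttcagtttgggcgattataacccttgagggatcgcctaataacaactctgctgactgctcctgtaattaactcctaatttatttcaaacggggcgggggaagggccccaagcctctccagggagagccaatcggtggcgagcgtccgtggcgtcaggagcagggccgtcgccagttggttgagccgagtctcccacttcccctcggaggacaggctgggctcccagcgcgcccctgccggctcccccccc
The Id2 window held 1 GGCGCC that starts 231 bases before the start site. In Id3 there was no GGCGCC but a CAGAC at 167 bases and a GTCTG at 68 bases before the start. Id4 held GGCGCC at 148 bases, and Coch held it at 155 and again at 34 bases. Windows were found for 10 of the 13 genes at least 2-fold higher, and none for Id1, Dusp9 and Pggt1b. Of the 10 genes with a window 5 had GGCGCC, namely Id2, Hnrnpu, Gata2 (in 1 of its 2 windows), Coch and Id4. That is 50% of them, against 20.2% of the 9347 kept genes with a window and 10.8% of all 27025 genes with one. Counted by window, it was 5 of 11 for the genes 2-fold higher, 17.0% of 11950 for kept genes and 9.59% of 32851 for all. Of the genes at least 1.5-fold higher 11 of 35 held GGCGCC, 31.4%, and of those at least 1.5-fold lower 1 of 11, 9.09%. The 35 include the 10 past 2-fold, so that 31.4% is not a separate observation. The share of 50% depends on how a gene is read, since Hnrnpu was past 2-fold on its brightest probe set alone. Averaging every probe set of a gene put Hnrnpu, Gata2 and Id4, with GGCGCC, under 2-fold, and also Msx2 and Taf15, without it. CAGAC in either direction stood in the windows of 2 of the 10, Id3 and Gata2, and in those of 45.8% of kept genes. Bases G and C made up 62.8% of the Id2 and of the Id3 window, 75.6% of that of Id4 and 74.8% of that of Coch. A match is a stretch of letters in this window, and binding was not measured.

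Of the other BMP-SMAD target genes, the homeobox factor Msx2 and the zinc finger factor Gata2 were past 2-fold. Msx2 was at 6.25 with BMP4, 4.77 with noggin and 4.71 untreated, a difference of 1.48 or 2.79-fold. This was its only probe set above the floor, and averaging all probe sets of the gene put Msx2 under 2-fold. Gata2 read 5.81, 4.34 and 4.81 in the same order, which is 1.46 or 2.76-fold, while its other probe set gave 0.38. For Msx2 the noggin and untreated levels were within 0.1 of each other, whereas for Gata2 the untreated level lay between the others. Smad6, an inhibitory SMAD that acts in feedback on the pathway, was at 5.07 with BMP4 and at 4.40 on both other arrays, a difference of 0.67. The other inhibitory SMAD, Smad7, which restrains both BMP and TGF-beta receptors, read 8.35, 8.17 and 8.0, a difference of 0.18, with 0.32 on its second probe set. Bambi, a pseudoreceptor that blocks the pathway, read 6.12, 5.65 and 5.66, a difference of 0.47. Thus the 3 feedback inhibitors were all higher with BMP4, Smad6 by more than 1.5-fold, and for Smad7 the noggin array lay above the untreated one.

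As a list, the BMP-SMAD targets had 20 kept genes of 25 on the array. Of these 16 were higher with BMP4 than with noggin, none was lower, and 4 were exactly equal. Over all kept genes 33.0% were higher, 34.1% lower and 32.9% equal, shares that apply beside the list counts below too. Of the 16, Dlx3, Tgif1, Msx1 and Hey1 were higher by 0.02, 0.03, 0.13 and 0.15, within the SD of 0.16 among probe sets of a gene. The median difference of the list was 0.22, against 0.00 for all kept genes. At least 1.5-fold higher were 7 members (Id2, Id3, Id1, Msx2, Gata2, Id4 and Smad6), against 0.381% of all kept genes. Below these and Bambi came the zinc finger factor Klf10 at 0.36 and the Notch effector Hes1 at 0.26. Equal on both arrays were Zfp423, a SMAD cofactor, and Atoh8, Tbx3 and Grem1. The list mean was 0.90, far above its median, since the Id genes, Msx2 and Gata2 hold most of the sum.

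Upstream components of the pathway were close to equal. Of 9 kept BMP ligands, 3 were higher, 1 was lower and 5 were equal. Bmp4 itself, which these cells express, was at 8.24 with BMP4, 8.40 with noggin and 8.50 untreated, a difference of -0.17. Bmp7, a related ligand, gave 0.34 at a level near the floor. Among 12 receptors and co-receptors the median was -0.0036 and the range from -0.17 for Eng, a co-receptor of endothelial cells, to 0.03 for the type I receptor Bmpr1a. The extracellular antagonists had 2 of 9 higher and 4 lower, from -0.32 for Fstl1 to 0.23 for the Nodal and BMP inhibitor Dand5. None of these ligands, receptors and antagonists reached 1.5-fold. Of 22 SMADs, SMAD ubiquitin ligases and partners, 6 were higher and 9 lower, and the signal carriers themselves did not stand apart: Smad1 and Smad4 were equal on both arrays and Smad5 differed by -0.03. Skil, a corepressor of SMADs that TGF-beta signalling is known to induce, read 9.34 with BMP4, 8.83 with noggin and 8.76 untreated, a difference of 0.50, and its second probe set gave 0.63.

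The bHLH factors with which Id proteins pair were also described. Of 18 kept E proteins and bHLH partners 7 were higher, 4 lower and 7 equal, with a median of 0.00. The E proteins, the main direct partners, differed little: Tcf3 by 0.09, Tcf12 by -0.09 and Tcf4 by 0.20. The highest members were Neurog3, a factor of endocrine and neural precursors, at 4.20 with BMP4, 3.28 with noggin and 3.84 untreated, and Mesp2, a factor of the presomitic mesoderm, at 4.41, 3.72 and 4.26. In both genes the untreated level was nearer the BMP4 level than the noggin level. The noggin level of Neurog3 was below the floor, so that its difference of 0.93 rests on a value in the range where the noggin array was generally lower. Msc, a bHLH repressor, gave -0.41.

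The dual-specificity phosphatases, which inactivate MAP kinases, were among the genes higher with BMP4. Dusp9, an ERK phosphatase, was at 8.75 with BMP4, 7.40 with noggin and 7.42 untreated, a difference of 1.35 or 2.54-fold, and its 2 other probe sets gave 1.13 and 1.30. Dusp5, a nuclear ERK phosphatase, read 7.09, 6.09 and 5.98, a difference of 0.997 that is just short of 2-fold. Dusp6, a cytoplasmic ERK phosphatase, read 7.63, 6.97 and 7.21, a difference of 0.66. Dusp9 was at nearly the same level with noggin as without treatment, while for Dusp6 the untreated level lay between. Of 9 kept phosphatases of this family 5 were higher, 1 was lower (Dusp16, -0.23) and 3 were equal, with a median of 0.34. Dusp4 gave 0.37 and Dusp1 0.34, but Dusp4 was kept only through its BMP4 level of 3.66. Its noggin level of 3.29 was below the floor. The list median depends on few genes: it was 0.17 without Dusp9, 0.17 without a floor and 0.00 without members shared with other lists. Over 23 kept FGF-ERK feedback and target genes, with which this family overlaps, 13 lay above 0 and 7 below, and the median was 0.07. Spry4, a feedback inhibitor of receptor tyrosine kinases, gave 0.51. The lowest members of this list were Spred1 at -0.26, Egr1 at -0.21 and Etv5 at -0.20.

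The lowest of the kept genes was Lefty1, a secreted inhibitor of Nodal. It was at 7.54 with BMP4, 8.55 with noggin and 8.64 untreated, a difference of -1.003, just past 2-fold. Its paralogue Lefty2 was at 8.10, 8.34 and 8.48, a difference of -0.24, and Nodal, the ligand, at 8.65, 8.85 and 8.85, a difference of -0.20. All 3 were lowest on the BMP4 array, and in each the noggin level was nearer the untreated level than the BMP4 level. The Nodal-activin list did not move as a whole: of 16 kept genes 7 lay above 0, 7 lay below and the median was 0.00. Eomes, a T-box factor, was higher by 0.57 and the convertase Furin by 0.22.

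The other genes past 2-fold were of mixed kinds. Coch, which encodes a secreted protein of the extracellular matrix known from the inner ear, was at 7.48 with BMP4, 6.23 with noggin and 6.26 untreated, a difference of 1.25. Malat1, a long noncoding RNA of nuclear speckles, read 9.35, 8.02 and 8.11, a difference of 1.33, but its 6 other probe sets ranged from -0.09 to 2.66. Taf15, an RNA-binding protein, read 5.36, 4.34 and 5.05, a difference of 1.02, and its other probe set gave 0.00. For Coch the noggin and untreated levels were nearly the same, and for Taf15 the untreated level was nearer that with BMP4. Zfp935, a zinc finger gene, was at 3.48 with BMP4 and below the floor on the others, at 2.43 and 3.01. Hnrnpu, an RNA-binding protein of the nuclear matrix, and Pggt1b, a subunit of a prenyltransferase, were past 2-fold on their brightest probe set, by 1.54 and 1.27, while their other probe sets ranged from -0.15 to 0.01 and from -0.19 to 0.00.

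Between 1.5-fold and 2-fold higher were further genes, regulators of development among them. Sox7, a factor of primitive endoderm and endothelium, was at 4.73 with BMP4, 3.84 with noggin and 3.74 untreated, a difference of 0.89. Lmo2, a cofactor of blood and endothelial genes, read 4.10, 3.42 and 3.45, a difference of 0.68, and its noggin level lay just below the floor. Ccn2, a matricellular protein induced by TGF-beta, read 6.97, 6.02 and 5.89, a difference of 0.96. For these 3 genes the noggin and untreated levels were close and the BMP4 level stood apart. Genes of the neural list were also in this range, of which Trnp1 had entered that list because of earlier results of these data. Trnp1, a nuclear protein of neural progenitors, was at 4.60 with BMP4, 3.65 with noggin and 4.47 untreated, a difference of 0.96, and the forebrain factor Zic2 was at 5.46, 4.79 and 4.96, a difference of 0.67. Trnp1 thus differed from the untreated level mainly on the noggin array, as did Hoxd9. Hoxd9 was at 4.59 with BMP4 and without treatment and at 3.97 with noggin. Both noggin levels were not far above the floor, below which the noggin array was generally lower, and the part of this was not tested. Gadd45b, a stress-responsive gene, gave 0.79, but its other probe sets gave 0.05 and 0.06.

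Over the 44 genes at least 1.5-fold higher, the untreated level was nearer the noggin level in 33 and nearer the BMP4 level in 11. Of the 13 genes past 2-fold it was nearer the BMP4 level in 2, Taf15 and Zfp935. Of the 44 genes, 9 were below the floor on the noggin array. The untreated level was nearer the BMP4 level in Zfp935, Fgfbp3, Car14, Zfp758 and Neurog3 of these. In Lmo2, Edn2, Peg10 and Prrx2 it was nearer the noggin level.

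**Figure D2:**
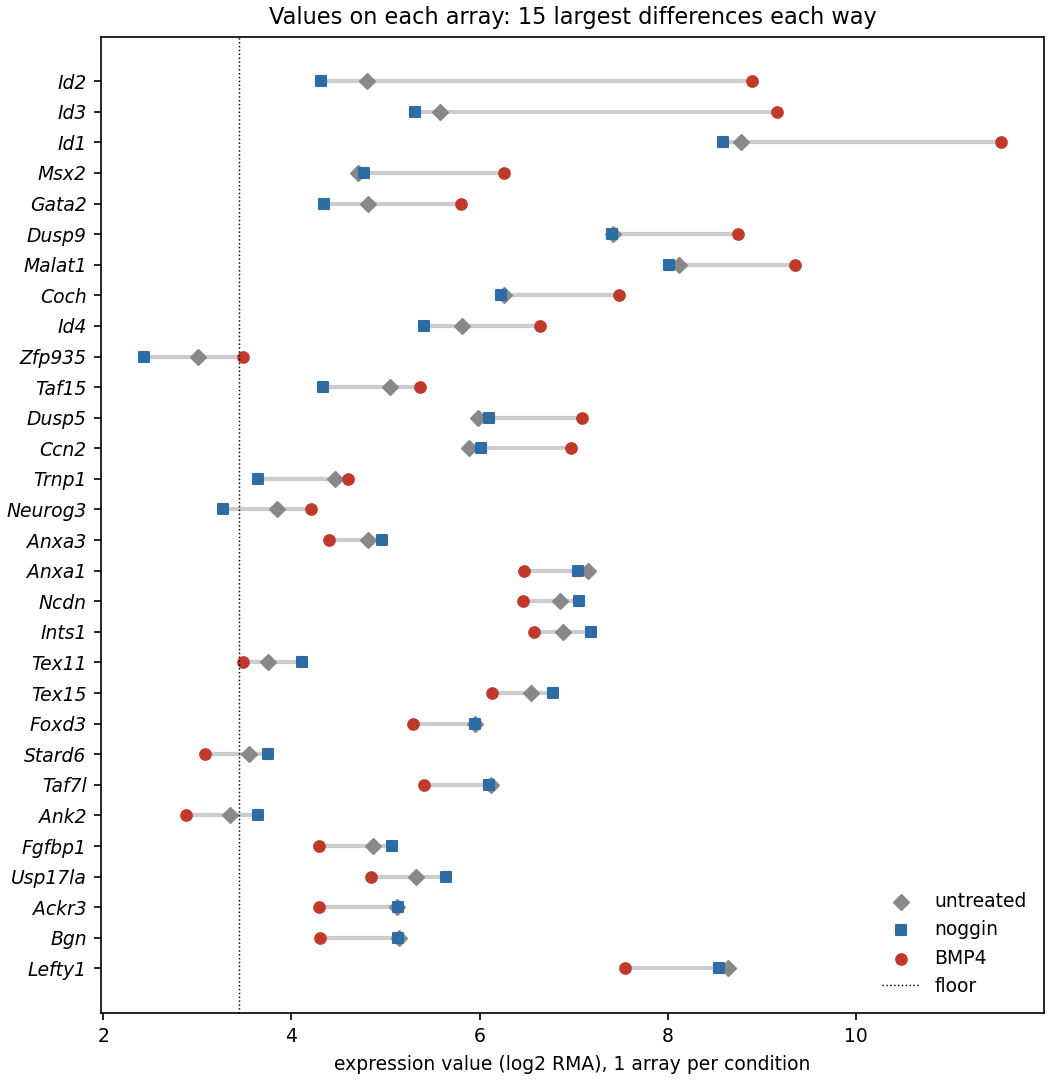
Log2 RMA value on each array (1 array per condition) for the 15 genes with the highest and the 15 with the lowest difference by the naming rule; the dotted line is the floor of 3.44. Circles are BMP4, squares noggin and diamonds untreated cells, and a grey bar joins each gene's values; for Id2, Id3, Id1, Msx2, Dusp9 and Coch the diamond sits near the square, and for Taf15, Trnp1 and Neurog3 nearer the circle.

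Past the limit of 1.5-fold, fewer genes were lower with BMP4 than higher, 16 against 44, and the lowest difference was smaller than the highest. Bgn, a small proteoglycan of the extracellular matrix, was at 4.30 with BMP4, 5.13 with noggin and 5.15 untreated, a difference of -0.83, with -0.84 and 0.00 on its other probe sets. Ackr3, a scavenging chemokine receptor, also read 4.30, 5.13 and 5.12, a difference of -0.83. Fgfbp1, which releases FGFs from the matrix, read 4.30, 5.07 and 4.86, a difference of -0.77. In each of these the BMP4 array was the low one. Foxd3, a forkhead factor of pluripotent cells and neural crest, was at 5.29 with BMP4 and at 5.96 on both other arrays, a difference of -0.66. The germ cell genes Taf7l (5.41, 6.10 and 6.12 for BMP4, noggin and untreated), Tex15 (6.13, 6.78 and 6.54) and Tex11 (3.48, 4.11 and 3.75) differed by -0.69, -0.65 and -0.62. Taf7l encodes a germ cell form of a general transcription factor subunit, and the Tex genes are needed in meiosis. For Tex15 and Tex11 the untreated level lay between the others. Anxa1 and Anxa3, annexins that bind membranes, gave -0.57 each and so fell just short of 1.5-fold. Also named by the rule were Usp17la (-0.80), Ank2 (-0.77), Stard6 (-0.67), Ints1 (-0.61) and Ncdn (-0.60), of which Ank2 and Stard6 were below the floor on the BMP4 array. Over the 16 genes at least 1.5-fold lower, the untreated level was nearer the noggin level in 13.

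The central pluripotency factors were level or slightly higher with BMP4. Pou5f1 was at 11.53 with BMP4, 11.31 with noggin and 11.31 untreated, a difference of 0.22, and Nanog read 11.15, 10.95 and 11.00, a difference of 0.20. Sox2 read 11.16, 11.12 and 11.16, a difference of 0.04. The first pair of differences was just above the SD of 0.16 among probe sets of a gene, and that of Sox2 was within it. The whole list of 34 kept pluripotency genes split into 14 higher, 12 lower and 8 equal, and apart from Foxd3 the lowest were Zfp296 at -0.40 and the nuclear receptor Nr5a2 at -0.35. The LIF-STAT3 list, the other signal that holds these cells, had 12 of 20 higher and 4 lower, with a median of 0.05. Socs2, a feedback inhibitor of cytokine receptors, gave 0.56 on its brightest probe set and between 0.00 and 0.09 on its others, and Il6st, the shared receptor subunit gp130, gave -0.28.

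Lineage lists were level by their medians while single members stood out. Medians were 0.00 for the primitive streak and mesoderm (13 kept genes, 6 higher and 3 lower), endoderm (19, 7 and 8), trophoblast (12, 4 and 3), neuroectoderm (16, 6 and 4), primed epiblast (11, 4 and 3) and endothelial and blood (15, 7 and 4) lists. The means of these lists were above 0, at 0.22, 0.04, 0.18, 0.14, 0.09 and 0.19 in the same order. With the floor at the 75th percentile of all values, their medians ran from -0.13 for endoderm to 0.20 for primitive streak and mesoderm. Gata2 belongs to several of these lists. Of the endoderm genes, Sox7 was the highest and the transcription factors Gata6 and Hnf4a followed at 0.37 each, whereas the basement membrane genes Lama1 and Lamc1 were lower, at -0.44 and -0.37. Tfap2c, a factor of trophoblast and germ cells, was at 7.48 with BMP4, 6.99 with noggin and 7.10 untreated, a difference of 0.49, and its other probe sets gave 0.27 and 0.40. Among 20 kept germ cell genes, 4 lay above 0 and 11 below (median -0.02), against 33.0% and 34.1% of all kept genes. Taf7l, the lowest of the germ cell list, had entered it because of earlier results of these data. Dazl, an RNA-binding germ cell protein, gave -0.50 on its brightest probe set and -0.01 on its other.

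The counts of the following lists stand beside 33.0% higher and 34.1% lower over all kept genes. Among 10 kept Wnt targets and feedback inhibitors, 6 were lower and 2 higher (median -0.05), and Notum, Apcdd1 and Axin2 gave -0.27, -0.26 and -0.22. Extracellular matrix and TGF-beta responsive genes had 12 of 22 lower and 5 higher. Their median was -0.02, but the ends of the list were wide. Coch and Ccn2 were at the top and Bgn, Postn at -0.55 and Fn1 at -0.44 at the bottom. Coch had entered this list because of earlier results of these data. None of the 13 kept fibroblast markers was higher, 7 were lower and 6 were equal, and Postn and Bgn are genes that fibroblasts express strongly. Postn was kept only through its noggin level of 3.55, its BMP4 level of 3.00 being below the floor. Of the 12 fibroblast markers used to check the cell type, to which no floor was applied, 3 were higher and 6 lower. Those higher were Col1a1, Lum and Twist2, all below the floor on both arrays. The part of such cells in the matrix values was not tested. Cell cycle genes had 9 of 25 higher and 12 lower, the lowest being Cenpe, Cenpf and Mki67 at -0.47, -0.46 and -0.45. Cenpe and Cenpf, which encode kinetochore proteins, each had another probe set above 0, at up to 0.21 and 0.36. Of 20 cell cycle inhibitors, Gadd45 and p53 target genes 9 were higher and 8 lower. The remaining lists, for chromatin regulators, adhesion, Hox, Notch, immediate-early, stress, cholesterol, hypoxia and interferon genes, had medians from -0.00039 for hypoxia and glycolysis to 0.02 for heat shock. Of these the Notch median depended on the floor, and was -0.28 with the floor at the 75th percentile of all values. Across all 34 lists the median was above 0 in 6, below 0 in 6 and exactly 0 in 22, and the lists, which hold 439 of the 11552 kept genes, held 20 of the 44 genes at least 1.5-fold higher and 4 of the 16 lower. Since the lists were written with earlier results of these data known, that count in part restates the choice of members.

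**Figure D3:**
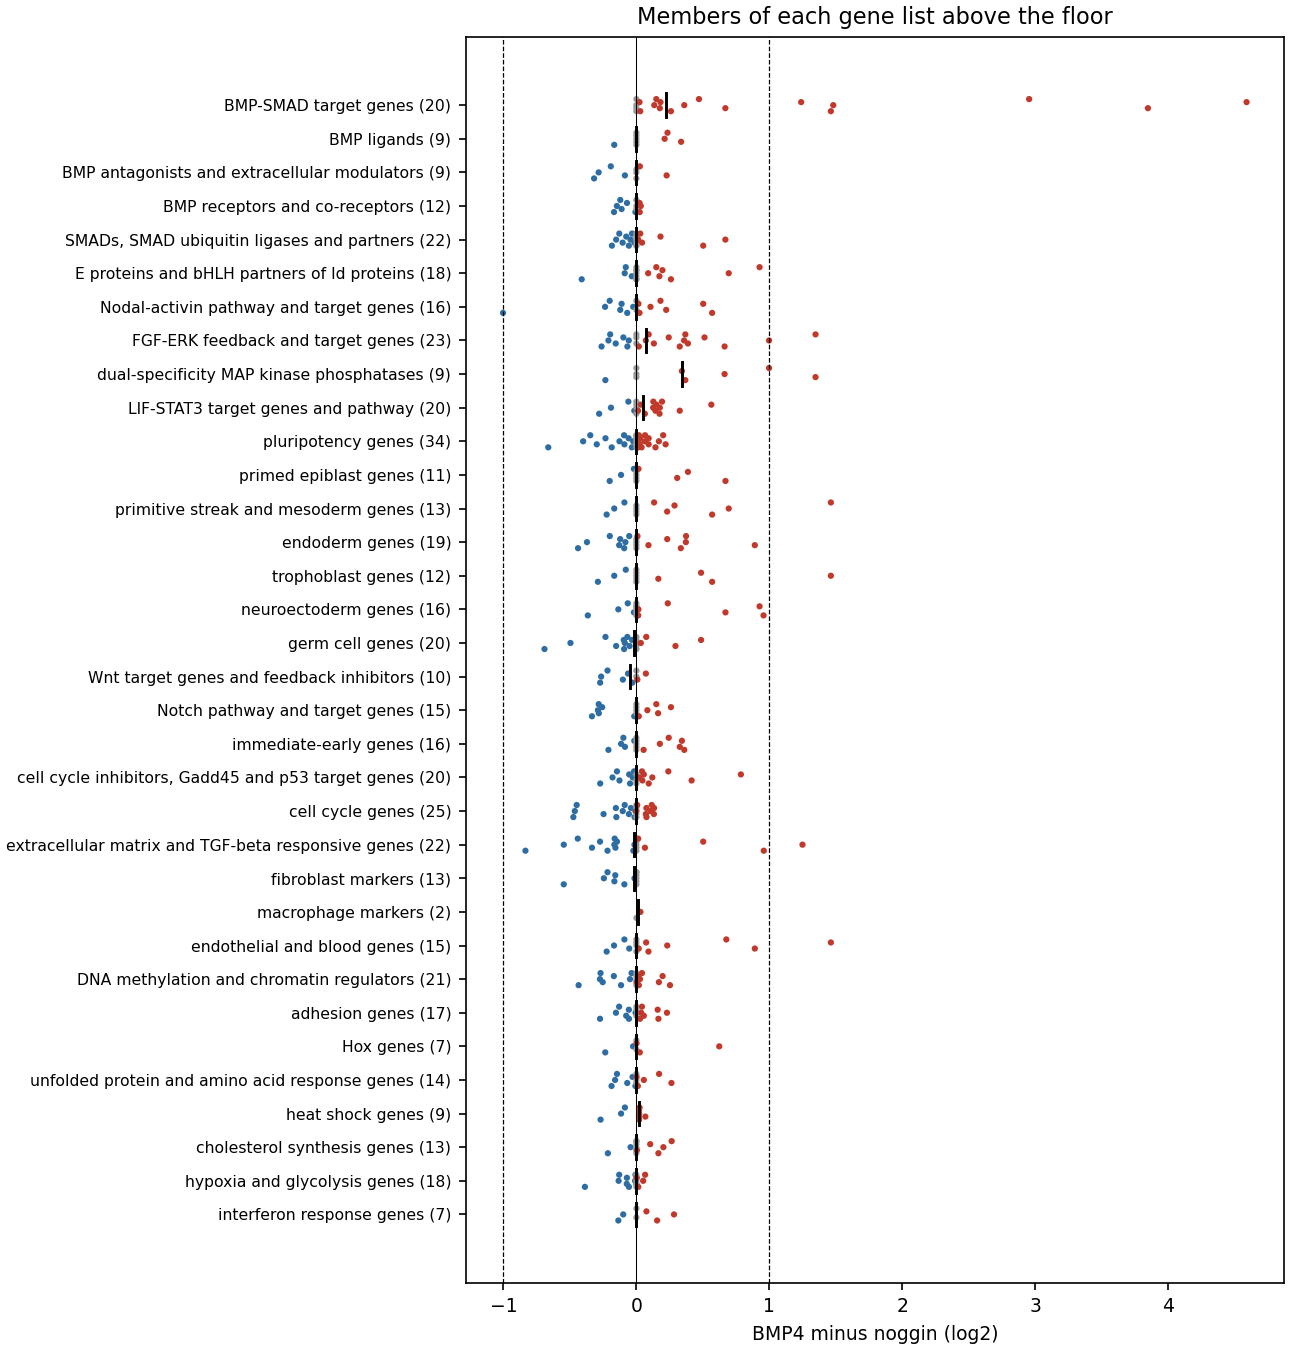
BMP4 minus noggin (log2) for the kept members of each of the 34 gene lists, 1 point per gene, red above 0, blue below 0 and grey at 0; numbers in brackets are kept members, black bars list medians and dashed lines 2-fold. The BMP-SMAD targets have no member below 0 and reach 4.59, the dual-specificity phosphatases have a median of 0.34, and most other lists are centred on 0.

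How far a gene's other probe sets gave the same picture differed between genes. Of the 14 genes past 2-fold in either direction, 6 had a single probe set above the floor and 8 had more, and in 3 of these 8 another probe set was past 2-fold too. Id2, Dusp9 and Malat1 were such genes. Counted by probe set, 36 of 20042 reached 2-fold higher and 1 reached 2-fold lower, and 17 of the 31 genes concerned were not past 2-fold by their brightest probe set. Probe sets that were not the brightest of their gene were at least 1.5-fold higher with BMP4 in 155 of 8490 cases, 1.83%, against 44 of 11552, 0.381%, for the brightest. At least 1.5-fold lower were 10 and 16, 0.118% and 0.139%. With only probe sets above the floor on both arrays the shares higher were 1.51% and 0.308%. The brightest probe sets also lay higher in level, at a median of 6.54 against 5.59 for the others. Among kept genes the share at least 1.5-fold higher was 0.589% in the lowest of 4 level bins and 0.173% in the highest. The part of level in the contrast was not tested. The 155 probe sets belonged to 138 genes, and the brightest probe sets of these 138 had a median difference of 0.00.

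Examples of this kind were chosen after their values were seen. Aspm, a spindle pole protein, gave -0.15 on its brightest probe set and 0.66, 0.97, 1.15 and 1.26 on the others. Cul5, a ubiquitin ligase scaffold, gave -0.05 and then 0.91 and 1.16. Nup214, a nuclear pore protein, gave -0.30 and 1.35, and Smc2, a condensin subunit, gave -0.19 and then values from -0.16 to 1.35. For such genes these arrays give no single direction. Which transcript part each probe set reads was not analysed here, and the part of the 5′ difference seen in Tfrc was not tested.

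**Figure D4:**
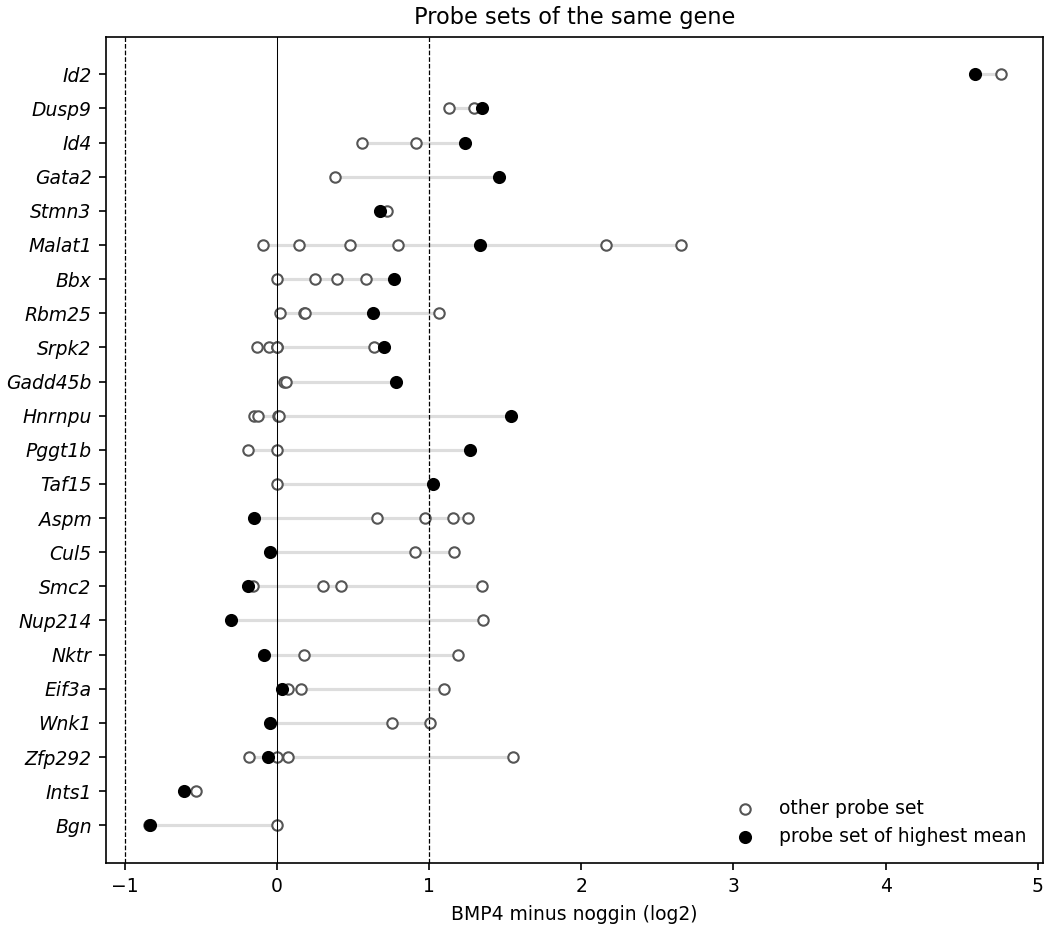
BMP4 minus noggin (log2) for every probe set above the floor of 23 genes; filled circles are the probe set with the highest mean level, open circles the others, and dashed lines 2-fold. The probe sets of Id2 and of Dusp9 lie together, those of Malat1 spread from -0.09 to 2.66, and in Aspm, Cul5, Smc2 and Nup214 the filled circle lies below 0 while open circles reach beyond 1.

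Small differences over all genes went with the length of the gene on the genome. RefSeq (assembly GRCm38.p6) gave a span for 11517 kept genes, 99.7%. In the decile of the shortest genes, up to 4.15 kb, the mean difference was 0.04, and 8.68% of genes were above 0.2 and 3.82% below -0.2. In the decile of the longest, from 108 kb, the mean was -0.04, and 3.56% were above 0.2 and 12.8% below -0.2. The median was 0.00 in every decile, where many genes have exactly equal values. Against the untreated array, shared by both of the following, the mean went from 0.00038 in the shortest decile to -0.02 in the longest with BMP4, and from -0.04 to 0.02 with noggin. Averaging all probe sets of a gene gave 0.04 and 0.0043. The genes at least 1.5-fold higher had a median span of 8.30 kb and those at least 1.5-fold lower 12.0 kb, against 22.4 kb for all, whereas the 79 genes between -0.4 and the limit of 1.5-fold lower had 61.0 kb. The part of the spike and 5′ control differences in this was not tested.

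**Figure D5:**
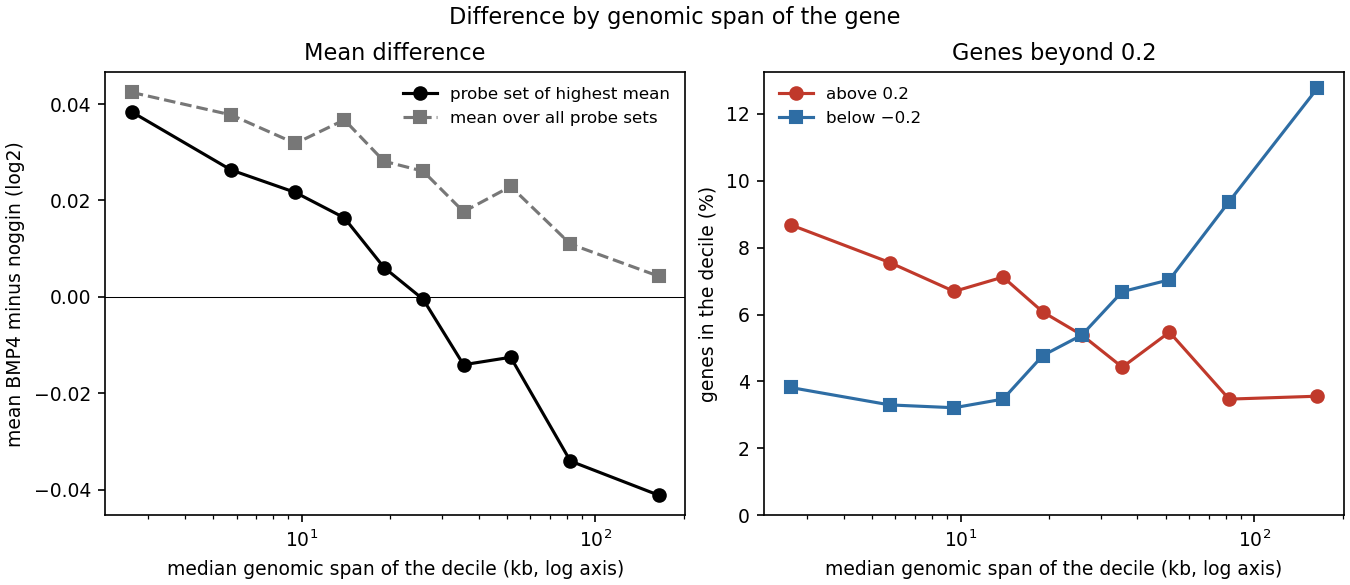
Left, mean BMP4 minus noggin (log2) in 10 deciles of genomic span (median span in kb, log axis), for the brightest probe set of each gene (circles) and the mean over its probe sets (squares). Right, the percent of genes in each decile above 0.2 and below -0.2; the mean runs from 0.04 to -0.04, and the share below -0.2 from 3.82% to 12.8%.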

How the data were processed

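Per the labels' protocols, total RNA of the 3 samples came from a Qiagen column kit and was labelled by the standard Affymetrix route. The table the authors deposited holds log2 values for each probe set. The submitters' processing notes name RMA; no version, setting or genome build is given in the sources used here. RMA as usually run equalises the distributions of arrays, so a change in the total RNA of a cell would not show, and its median polish over few arrays can give exactly equal values, so that a small true difference can read 0.00. Depth does not apply to arrays, whose number, 1 per condition, limits the precision: no p-value, SD or SE between samples was computed, and leaving out an array was not possible.

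Values were used as deposited. Gene names came from the platform annotation, in which 932 carried several symbols, 9160 none and 64 were controls; the Entrez identifiers of 34741 of the members matched RefSeq (GRCm38.p6), which was used for names, spans and upstream sequences. Promoter sequences are on the gene's strand. The text names the 15 kept genes with the highest and the 15 with the lowest difference, except clone and model names and genes for which a different probe set above the floor lay on the opposite side of 0 by more than 0.1. It adds every list member at least 1.5-fold apart and 13 fixed genes of the pathway and of pluripotency. For lists it describes, the rule was the 3 members farthest each way, but the text gives only some of these. It also gives some members near 0, such as Smad1, Smad4 and Smad5. Genes named outside this rule, such as Hnrnpu, Pggt1b, Aspm, Cul5, Nup214 and Smc2, were picked with their values already known. The members and the 34 lists, which hold 613 genes, 439 of them kept, were chosen with earlier results of these data known, and Coch, Trnp1 and Taf7l entered lists for that reason. The computation was tested on simulated data with 200 changed genes. Alternatives were other floors, the mean over probe sets, plain probe sets alone, probe sets as units, loess-corrected differences (span 0.3), and for lists the mean and the list without shared members or without the member farthest from 0. Python 3.11.15, pandas 2.3.3, numpy 2.4.6 and statsmodels 0.14.6 were used.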

Additional observations from a re-analysis of the deposited data

Results flagged for a closer look

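Among probe sets that the annotation pairs with no single gene symbol, and which entered none of the comparisons above, 2602 lay above the floor, and 5 of these were at least 2-fold higher with BMP4 than with noggin and also above their untreated level. Probe set 1428670_at was at 7.40 with BMP4, 5.77 with noggin and 6.02 untreated, a difference of 1.63. Probe set 1456319_at was at 9.16, 7.98 and 7.96, a difference of 1.17. The others were 1457047_at (4.54, 3.33 and 4.05, a difference of 1.21), 1431993_a_at (4.30, 3.10 and 3.34, a difference of 1.21) and 1458924_at (3.48, 2.25 and 2.51, a difference of 1.23), all with noggin levels below the floor. The share of such probe sets at least 2-fold higher was 0.192%, close to the 0.180% among the probe sets with 1 gene symbol above the floor, and none was at least 2-fold lower.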

How the results depend on the processing

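None of the 45 named genes recomputed with probe sets above the floor averaged or with loess correction changed sign. Hnrnpu and Pggt1b were not among them. The rule that named the genes with the highest and lowest difference had left both out, because another probe set lay on the opposite side of 0. For genes named by that rule averaging could therefore hardly change the sign, and their unchanged sign is no check of it. Of the lists the heat shock genes changed sign, from a median of 0.02 to a mean of -0.03. Counts depended on which probe sets were read. Without a floor 102 genes were at least 1.5-fold higher; with the floor at the 75th percentile (6.02) 20 were higher and 6 lower. With all probe sets of a gene averaged, 7 genes were at least 2-fold higher and 10 at least 1.5-fold lower. These 7 were among the 13 of the report; Gata2, Hnrnpu, Id4, Msx2, Pggt1b and Taf15 were not. With plain-suffix probe sets alone, 8 were at least 2-fold higher, and Gata2, Id1, Id2, Malat1 and Zfp935 left the count; Id1 and Id2 have no such probe set above the floor. With probe sets as units, 36 were at least 2-fold higher, 199 at least 1.5-fold higher and 26 lower. The other 27 counts stayed within 1.5 times, including 14 genes at least 2-fold higher after loess correction. The BMP-SMAD list had a mean of 0.90 against a median of 0.22, and a median of 1.24 without members shared with other lists. Across these alternatives 226 list values and 83 values of named genes moved by no more than the within-gene SD of 0.16, and 11 and 7 moved by more. The named genes that moved did so when probe sets above the floor were averaged: Bgn to -0.56, Gadd45b to 0.30, Gata2 to 0.92, Id4 to 0.90, Malat1 to 1.07, Ncdn to -0.31 and Taf15 to 0.51. The dual-specificity phosphatase median was 0.17 without a floor, 0.66 with the higher floor and 0.00 without shared members. No paired analysis was possible because each condition had 1 array. Signal near background limits low genes: 11 of the 60 genes past 1.5-fold were below the floor on 1 array.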
